A study of Mus musculus with 18 samples.

Results

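The 8 hyaluronan genes described here were Has1, Has2, Has3, Vcan, Tnfaip6, Cd44, Hyal1 and Hyal2, taken by symbol from a count table of 48709 genes in mouse embryonic fibroblasts (MEFs) and from a table of RNA precipitated with IMP2. All 8 passed the filter on low counts, as did 13702 genes in all. They were chosen by name, with earlier results of these same RNA-seq counts in view, and no record says which contrasts guided the choice. Adjusted p-values below run over all tested genes and describe where each gene stands in the fit. They are not independent evidence that this set of genes responds.

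Hyaluronan is a long, unsulphated sugar chain of the matrix, spun out through the plasma membrane by the hyaluronan synthases Has1, Has2 and Has3, of which Has2 is the main enzyme in embryonic mesenchyme. Vcan encodes versican, a large proteoglycan that binds the chain and organises the loose matrix around fibroblasts, and Tnfaip6 encodes TSG-6, which transfers heavy chains onto hyaluronan in inflamed tissue. Cd44 is the main cell surface receptor of the chain, and Hyal1 and Hyal2 are hyaluronidases that cut it.

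All cells were C57BL/6 MEFs. The 4 RNA-seq groups were Imp2 siRNA with IL-17, Imp2 siRNA alone, Mock with IL-17, and Mock, with 3 libraries each. Mock is the label's word, and the design text describes a control siRNA. IL-17, an inflammatory cytokine, was given at 200 ng/mL for 8 h, beginning 24 h after transfection. IMP2, encoded by Igf2bp2, is an RNA-binding protein that reads the m6A mark. For RIP-seq, 3 anti-IMP2 and 3 IgG precipitations came from MEFs given the same dose of IL-17 for 3 h. The labels do not say whether the libraries of a group were separate cultures, so p-values measure the spread between libraries, which may be technical.

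The libraries held 33841054 to 44433699 counts. Titles of 4 libraries, 1 per group, begin with RB160 and those of 8, 2 per group, with NA. The labels do not explain the prefix, and the libraries stand apart by it: 69.3% of tested genes differed in level between prefixes. Igf2bp2, the siRNA target, ran from 18.4 to 28.2 CPM (reads of the gene scaled to a common library total with TMM factors) in the 6 Imp2 siRNA libraries and from 134 to 167 CPM in the 6 Mock libraries. Cxcl1 and Nfkbiz, known IL-17 targets, rose with IL-17 in both siRNA states (log2 fold changes of 3.15 and 2.30 in Imp2 siRNA cells, and of 2.65 and 2.05 in Mock cells). Fibroblast markers summed to 13170 to 20170 CPM per library, mostly from Col1a1 and Col1a2 (group means of 7763 to 11170 and 4537 to 5971 CPM). Thy1 averaged 2.21 to 3.45 CPM and Fap under 1 CPM in each group. Smooth muscle markers summed to 4143 to 20380 CPM and chondrocyte markers to 131 to 660 CPM per library. Macrophage markers summed to 8.11 to 15.8 CPM and mesothelial markers to 3.01 to 16.4 CPM per library. Of these, Adgre1, Tyrobp, Wt1 and Lrrn4 were at 0 counts, while Cd14 (4.72 to 9.73 CPM), Cd68 (2.77 to 3.68), Csf1r (0.989 to 1.76) and Msln (5.96 to 9.12) were detected, as means of the 4 groups. All 7 endothelial markers averaged under 1 CPM in each group.

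Promoters are shown for the 3 genes that passed the test with Imp2 siRNA (Vcan, Has1, Hyal1) and for Tnfaip6, the inflammation-linked gene of the set. They are RefSeq sequences of GRCm38.p6, 300 bases long, from 250 before to 50 after the annotated start. The table held promoters for 6 of the 8 genes, and Has2 and Has3 are named only. Capitals mark matches on either strand to AP-1 (TGANTCA), C/EBP (TTNNGNAA) and NF-kB (GGGNNNNNCC) motifs, the factor families known to act after IL-17.
Vcan (chr13:89742463-89742762, minus strand): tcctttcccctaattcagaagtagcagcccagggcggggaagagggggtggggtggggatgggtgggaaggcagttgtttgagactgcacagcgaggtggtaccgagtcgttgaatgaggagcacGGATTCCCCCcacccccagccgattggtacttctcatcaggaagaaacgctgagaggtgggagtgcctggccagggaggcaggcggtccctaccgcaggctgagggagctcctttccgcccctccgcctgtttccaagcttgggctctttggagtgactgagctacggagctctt
Has1 (chr17:17855139-17855438, minus strand): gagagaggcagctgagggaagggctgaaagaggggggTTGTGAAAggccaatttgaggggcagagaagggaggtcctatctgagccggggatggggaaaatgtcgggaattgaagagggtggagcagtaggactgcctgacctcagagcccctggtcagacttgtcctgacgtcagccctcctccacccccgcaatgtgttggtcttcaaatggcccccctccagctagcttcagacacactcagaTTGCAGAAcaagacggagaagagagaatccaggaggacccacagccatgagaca
Hyal1 (chr9:107576700-107576999, plus strand): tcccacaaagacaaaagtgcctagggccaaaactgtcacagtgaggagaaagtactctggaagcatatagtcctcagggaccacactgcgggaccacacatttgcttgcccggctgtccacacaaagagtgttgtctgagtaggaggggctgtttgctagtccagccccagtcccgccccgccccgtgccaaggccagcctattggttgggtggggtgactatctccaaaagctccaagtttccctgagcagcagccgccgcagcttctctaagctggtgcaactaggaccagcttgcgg
Tnfaip6 (chr2:52037863-52038162, plus strand): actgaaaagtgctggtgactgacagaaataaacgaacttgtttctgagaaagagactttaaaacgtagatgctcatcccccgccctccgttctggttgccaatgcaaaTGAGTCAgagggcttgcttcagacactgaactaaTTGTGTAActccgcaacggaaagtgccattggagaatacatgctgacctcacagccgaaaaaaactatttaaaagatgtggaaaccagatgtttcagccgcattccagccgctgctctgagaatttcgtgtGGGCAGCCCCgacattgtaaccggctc
Tnfaip6 held 1 match to each of the 3 motifs. Vcan held 1 NF-kB match, Has1 held 2 C/EBP matches, and Hyal1 had no match to these letters in this window. No match overlapped another. The promoters of Cd44 and Hyal2, which are not shown, held 2 NF-kB matches each and no AP-1 or C/EBP match. Of 32851 promoters of this length, 7.8% held the AP-1 motif, 40.7% the C/EBP motif and 50.8% the NF-kB motif, so matches to the last pair of motifs are frequent.

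Levels below are CPM and are listed per group with the RB160 library before the pair of NA libraries. They are not adjusted for transcript length, so levels are compared within a gene and not between genes. Libraries were tested with edgeR's quasi-likelihood test on all 12 libraries with the prefix as a term. In bulk samples, fewer cells of a type and less RNA per cell cannot be told apart.

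With Imp2 siRNA, transcripts for the matrix proteoglycan versican and the synthase Has1 fell and the hyaluronidase Hyal1 rose. The same 3 genes passed the test without and with IL-17. They are 3 of 8, against 32.4% of all tested genes without IL-17 and 33.3% with IL-17, so the share is near the background. In each state 2 of the 8 fell and 1 rose, against 16.4% and 16.6% of all genes that fell and 16.1% and 16.7% that rose. The median log2 fold change of the 8 genes was -0.07 without and -0.20 with IL-17, against -0.0004 and -0.01 over all tested genes. All 3 calls depended on the prefix term: without it in the model their adjusted p-values by edgeR were 0.132 to 0.531. The log2 fold changes stayed about as large without the term, with and without IL-17: -1.15 and -1.04 for Vcan, -1.37 and -1.82 for Has1, and 0.47 and 0.48 for Hyal1.

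**Figure D1:**
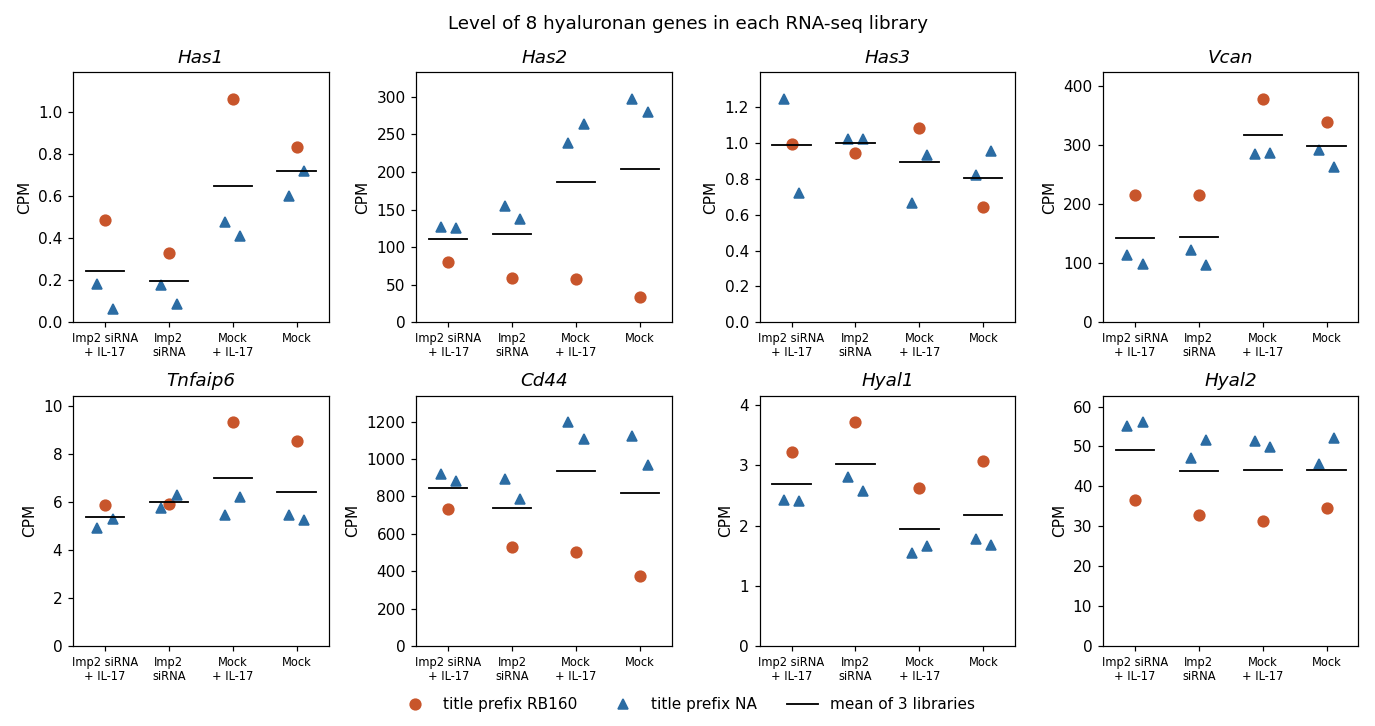
Level in CPM (linear axis from 0) of the 8 genes in each RNA-seq library, by group, with circles for the RB160 library, triangles for the pair of NA libraries and a bar at the mean of 3 libraries. Vcan sits lower in all Imp2 siRNA libraries than in all Mock libraries, and Has2 is ordered oppositely by siRNA in RB160 and in NA libraries.

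Vcan measured 215, 115 and 98.2 CPM in Imp2 siRNA cells with IL-17 and 216, 122 and 97.5 CPM in Imp2 siRNA cells without it. It measured 379, 285 and 286 CPM in Mock cells with IL-17 and 339, 292 and 263 CPM in Mock cells without it. Every Imp2 siRNA library was below every Mock library, and in each group the RB160 library was the highest. The log2 fold change was -1.11 without IL-17 (SE 0.171, adjusted p = 0.00111 by edgeR) and -1.21 with IL-17 (SE 0.171, adjusted p = 0.000664 by edgeR). Group means were 145 ± 62.3 CPM in Imp2 siRNA and 298 ± 38.7 CPM in Mock cells, and 143 ± 63.1 and 316 ± 53.9 CPM in the same states with IL-17 (SD, n = 3 each). Both Imp2 siRNA groups stood below both Mock groups, while neighbours that differed only by IL-17 lay within their spread. The call was kept when any 1 library was left out.

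Has1, a hyaluronan synthase gene, had few reads in any library. Its counts were 22, 6 and 2 in Imp2 siRNA cells with IL-17, against 54, 18 and 14 in Mock cells with IL-17. Without IL-17 they were 14, 6 and 3 in Imp2 siRNA cells, against 35, 22 and 24 in Mock cells. As CPM these are 0.486, 0.182 and 0.0627 against 1.06, 0.478 and 0.409 with IL-17, and 0.331, 0.175 and 0.0875 against 0.833, 0.601 and 0.717 without it. Within each prefix the Imp2 siRNA libraries were the lower ones, and the groups overlapped only with IL-17, where the RB160 library of the siRNA group exceeded both NA libraries of the Mock group. The log2 fold change was -1.90 without IL-17 (95% interval -2.76 to -1.03, adjusted p = 0.00244 by edgeR). With IL-17 it was -1.39 (95% interval -2.21 to -0.56, adjusted p = 0.0131 by edgeR). The call with IL-17 rested on few reads: its adjusted p was 0.0506 without library 3 of the Imp2 siRNA with IL-17 group and 0.0802 without library 1 of the Mock with IL-17 group. Groups did not overlap for 2 of the 8 genes without IL-17 (Vcan and Has1) and for 1 with IL-17 (Vcan), against 18.7% and 18.8% of all tested genes.

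Hyal1, a lysosomal hyaluronidase, measured 3.23, 2.43 and 2.41 CPM in Imp2 siRNA cells with IL-17 and 3.71, 2.81 and 2.57 CPM in Imp2 siRNA cells alone. Mock cells had 2.61, 1.54 and 1.66 CPM with IL-17 and 3.07, 1.77 and 1.67 CPM without it. Within each prefix every Imp2 siRNA library was above the Mock library or libraries of the same IL-17 state, and the groups overlapped because the RB160 Mock libraries were high. The log2 fold change was 0.50 without IL-17 (SE 0.149, adjusted p = 0.0196 by edgeR) and 0.48 with IL-17 (SE 0.151, adjusted p = 0.0235 by edgeR). Leaving out any of 3 libraries without IL-17 (library 2 of Imp2 siRNA, library 2 or 3 of Mock) moved the adjusted p to between 0.0539 and 0.0745. With IL-17, leaving out library 2 or 3 of either group moved it to between 0.0586 and 0.0737. Hyal1 overlaps Nat6 on the same strand at chromosome 9, 107578887 to 107581710 (mm10). Nat6 had 515 to 828 counts per library and also rose, by 0.33 without IL-17 (adjusted p = 0.0107) and 0.51 with IL-17 (adjusted p = 0.000604), and reads of the shared stretch cannot be assigned to either gene from these counts.

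**Figure D2:**
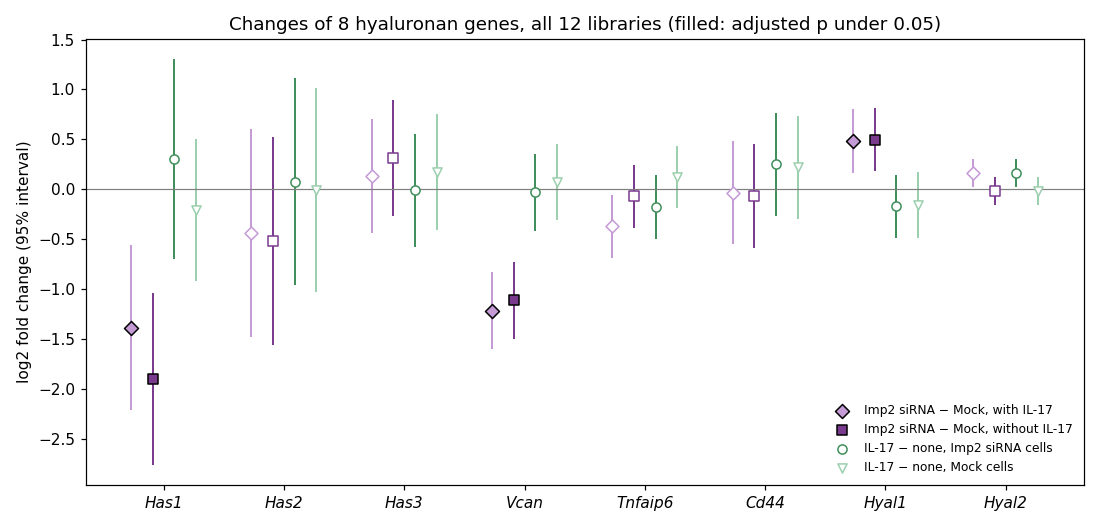
Log2 fold change with its 95% interval for the 8 genes in 4 comparisons, from all 12 libraries with the title prefix as a term. Filled symbols (Has1, Vcan and Hyal1, siRNA comparisons only) passed an adjusted p of 0.05, and the intervals of Has2 are the widest in all 4 comparisons.

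Has2, Cd44, Tnfaip6, Hyal2 and Has3 did not pass the test with Imp2 siRNA in either IL-17 state when both prefixes shared 1 effect. For Has2 and Cd44 this average covered opposite differences. In a model with a mean for each group and prefix, which weights both prefixes equally, Has2 (-0.25, adjusted p = 0.00663 by edgeR) and Tnfaip6 (-0.43, adjusted p = 0.00666 by edgeR) passed for the siRNA with IL-17. With 1 RB160 library per group, the spread in that model comes from the NA pairs and leaves out disagreement between prefixes. Has2 had 80.0 CPM in the RB160 library of Imp2 siRNA cells with IL-17, against 57.2 CPM in Mock cells with IL-17. It had 59.01 CPM in the RB160 library of Imp2 siRNA cells alone, against 33.5 CPM in Mock cells. The NA libraries had 127 and 126 CPM in Imp2 siRNA cells with IL-17, against 238 and 263 CPM in Mock cells with IL-17. Without IL-17 the NA libraries had 154 and 138 CPM in Imp2 siRNA cells, against 298 and 279.96 CPM in Mock cells. Imp2 siRNA libraries were thus the higher ones in both RB160 pairs and the lower ones among all NA libraries, with no overlap within the NA prefix.

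The siRNA effect was therefore compared between prefixes in that model, a test added after the data were seen. With 1 RB160 library per group, its spread comes from the NA pairs, and the lone RB160 libraries are assumed to vary like them. The mean siRNA effect on Has2 over both IL-17 states was a log2 fold change of 0.65 in RB160 and -0.99 in NA libraries. The difference was 1.64 (SE 0.0944, 95% interval 1.44 to 1.84, adjusted p = 7.42e-08 by edgeR), which ranked 1 of 13702 genes by p. It was 1.47 with IL-17 alone (adjusted p = 2.28e-05) and 1.80 without it (adjusted p = 4.26e-06). Leaving out any NA library kept it between 1.59 and 1.67. In all, 4 of the 8 genes passed this test of the difference averaged over IL-17 states, against 6.13% of all tested genes. Within single IL-17 states Has2 and Cd44 passed in both. Vcan (adjusted p = 0.152 without and 0.195 with IL-17 by edgeR) and Tnfaip6 (0.181 and 0.421) passed in neither.

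Cd44 had 736 and 527 CPM in the RB160 libraries of Imp2 siRNA cells with and without IL-17, against 503 and 373 CPM in the RB160 libraries of Mock cells. In NA libraries it had 921 and 883 CPM in Imp2 siRNA cells with IL-17, against 1196 and 1109.8 CPM in Mock cells with IL-17. Without IL-17 the NA libraries had 895 and 787 CPM in Imp2 siRNA cells, against 1122 and 969 CPM in Mock cells. The receptor gene thus showed the same opposite order as Has2. Its siRNA effect was 0.52 in RB160 and -0.33 in NA libraries, and the difference of 0.86 passed the test (SE 0.104, adjusted p = 9.31e-05 by edgeR, rank 46).

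Tnfaip6 measured 5.88, 4.89 and 5.27 CPM in Imp2 siRNA cells with IL-17, against 9.30, 5.44 and 6.19 CPM in Mock cells with IL-17. Without IL-17 it measured 5.91, 5.76 and 6.30 CPM in Imp2 siRNA cells, against 8.52, 5.43 and 5.26 CPM in Mock cells. The high values were the RB160 libraries of Mock cells. Its siRNA effect was -0.59 in RB160 and -0.01 in NA libraries. The difference of -0.58 had an adjusted p of 0.0373 by edgeR, and it did not pass with DESeq2 (adjusted p = 0.276) or without library 3 of either Imp2 siRNA group or library 2 of the Mock with IL-17 group (0.0748 to 0.0825). Over both prefixes its log2 fold change with IL-17 present was -0.37 (adjusted p = 0.0690 by edgeR). It passed without library 1 of Imp2 siRNA (0.0426), library 2 of Mock with IL-17 (0.0455) or library 1 of Mock (0.0473).

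Vcan fell in both prefixes but not by the same amount: the siRNA effect was -0.74 in RB160 and -1.38 in NA libraries, a difference of 0.64 (SE 0.132, adjusted p = 0.0190 by edgeR). This difference did not pass without library 2 or 3 of the Mock with IL-17 group or library 2 of the Mock group (adjusted p of 0.0547 to 0.0625). For Has1 (0.84, adjusted p = 0.421), Hyal1 (-0.33, 0.436), Hyal2 (0.0045, 0.990) and Has3 (-0.04, 0.972) no difference between prefixes passed the test. The interval of the Has1 difference was wide (-0.29 to 1.96), while that of Hyal2 ran from -0.20 to 0.21.

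**Figure D3:**
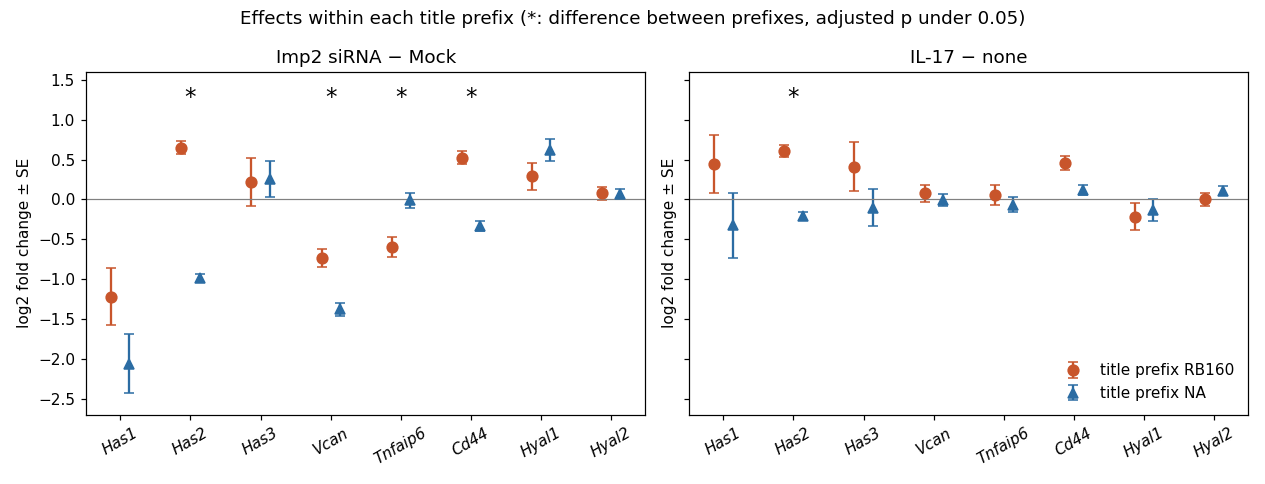
Log2 fold change ± SE of Imp2 siRNA over Mock (averaged over IL-17 states) and of IL-17 over none (averaged over siRNA states), in RB160 libraries (circles, 1 per group) and NA libraries (triangles, 2 per group). Asterisks mark genes whose effect differed between prefixes at an adjusted p under 0.05: Has2, Vcan, Tnfaip6 and Cd44 for the siRNA, and Has2 for IL-17.

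In the NA libraries taken alone, 5 of the 8 genes passed the test in each IL-17 state, against 31.0% of genes tested there without IL-17 and 31.8% with it. Has2 fell by 0.99 on the log2 scale without IL-17 (adjusted p = 9.02e-08) and had a log2 fold change of -0.995 with it (adjusted p = 7.99e-08). Cd44 had log2 fold changes of -0.32 (adjusted p = 0.00915) and -0.36 (adjusted p = 0.00430) in these libraries. Vcan, Has1 and Hyal1 also passed there in both states, with Vcan at -1.34 without and -1.43 with IL-17. The RB160 libraries alone, with 1 per group, allow no test.

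The level itself also differed by prefix for 7 of the 8 genes, against 69.3% of all tested genes. Has2 (log2 difference RB160 minus NA of -1.70), Cd44 (-0.89) and Hyal2 (-0.60) were lower in RB160 libraries. Has1 (1.08), Vcan (0.68), Hyal1 (0.60) and Tnfaip6 (0.40) were higher. Has3, at 0.642 to 1.08 CPM in RB160 and 0.664 to 1.246 CPM in NA libraries, had a difference of -0.01 (adjusted p = 0.971).

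Hyal2, a hyaluronidase held at the cell surface by a lipid anchor, measured 36.5, 55.1 and 56.0 CPM in Imp2 siRNA cells with IL-17 and 32.9, 47.1 and 51.6 CPM in Imp2 siRNA cells alone. Mock cells had 31.2, 51.3 and 49.9 CPM with IL-17 and 34.5, 45.7 and 52.2 CPM without it. The groups overlapped throughout, and the log2 fold change with the siRNA was -0.01 without IL-17 (95% interval -0.15 to 0.12) and 0.16 with IL-17 (95% interval 0.03 to 0.30, adjusted p = 0.0653 by edgeR). The second value passed without library 2 of Mock (adjusted p = 0.0268) and with the compared groups alone (adjusted p = 0.0405). Has3 had 23 to 55 counts per library and log2 fold changes of 0.31 without and 0.13 with IL-17, with intervals that span 0. Its last stretch overlaps Chtf8, which has 5780 to 7173 counts per library and lies on the other strand. Whether counting used strand is not stated, so reads there cannot be told apart.

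IL-17 changed none of the 8 genes at 8 h in the model with 1 effect for both prefixes. In Imp2 siRNA cells 0 of 8 passed edgeR's test, against 0.452% of all tested genes, and 1 (Hyal2, 0.16) had an unadjusted p under 0.05. In Mock cells 0 of 8 passed, against 0.409% of all tested genes, and 0 had an unadjusted p under 0.05. DESeq2 also called 0 in either state. At that background, a count of 0 says little about these 8 genes. In the model that weights both prefixes equally, Cd44 passed in Imp2 siRNA cells (0.29, adjusted p = 0.0422 by edgeR) and in Mock cells (0.29, adjusted p = 0.0329 by edgeR), and Has2 in Mock cells (0.28, adjusted p = 0.0204 by edgeR). With 1 RB160 library per group, the spread in that model comes from the NA pairs and leaves out disagreement between prefixes. In Mock cells the IL-17 effect on Has2 was 0.77 in RB160 and -0.20 in NA libraries. The sign of its average follows the RB160 pair. For Cd44 in Mock cells the effects were 0.43 and 0.14. With 1 effect for both prefixes, the log2 fold changes ran up to 0.30 in absolute size in Imp2 siRNA cells and 0.22 in Mock cells. Tnfaip6, known in other cells as an inflammation-induced gene, had a log2 fold change of -0.17 in Imp2 siRNA cells (95% interval -0.50 to 0.15) and 0.12 in Mock cells (95% interval -0.19 to 0.43). Vcan had -0.03 (95% interval -0.41 to 0.35) and 0.07 (95% interval -0.31 to 0.45) in the same order.

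Has2 was the exception when prefixes were separated. Its IL-17 effect, averaged over siRNA states, was 0.60 in RB160 and -0.21 in NA libraries. The difference of 0.81 passed the test (SE 0.0939, adjusted p = 0.000501 by edgeR, rank 4 of 13702). Has2 was the only 1 of the 8 genes to pass this averaged test, against 0.460% of all tested genes. In Mock cells its difference was 0.97 (adjusted p = 0.00534 by edgeR). In Imp2 siRNA cells it was 0.65 and did not pass (adjusted p = 0.163 by edgeR). In RB160 libraries IL-17 levels were the higher ones in both siRNA states, and in NA libraries the lower ones in both. For Cd44, whose IL-17 effect was 0.46 in RB160 and 0.12 in NA libraries, the difference of 0.34 did not pass (adjusted p = 0.256).

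The difference of the IL-17 response between Imp2 siRNA and Mock cells passed for 0 of 8 genes by edgeR and by DESeq2, with 0 at an unadjusted p under 0.05. No gene of the 13702 passed by either tool (0%), and 141 had an unadjusted p under 0.05 by edgeR. The widest interval among the 8 was that of Has2, at 0.08 (-1.37 to 1.53).

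The wider pathway was described with lists of 85 other names, of which 83 were in the table and 63 were tested. With Imp2 siRNA, 8 of the 63 rose and 29 fell with IL-17, and 11 rose and 24 fell without it. Of all tested genes, 16.7% rose and 16.6% fell with IL-17, and 16.1% rose and 16.4% fell without it. The single lists below hold 5 to 17 tested genes, and their counts are to be read against these shares (33.3% in either direction with IL-17 and 32.4% without it). The median log2 fold change of the 63 was -0.21 with and -0.20 without IL-17, against -0.01 and -0.0004 over all tested genes. With IL-17 itself, 1 of the 63 passed in each siRNA state, against 0.452% of all tested genes in Imp2 siRNA cells and 0.409% in Mock cells. It was Adamts5, which encodes a protease that cuts versican and fell by 0.58 on the log2 scale in Imp2 siRNA cells (adjusted p = 0.00149) and in Mock cells (adjusted p = 0.00145).

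Of the 9 genes for the nucleotide sugars from which hyaluronan is built, 1 rose and 5 fell with IL-17, and 2 rose and 2 fell without it, so 6 of 9 passed with IL-17 and 4 of 9 without it, against the 33.3% and 32.4% of all tested genes. Gfpt2, which encodes an enzyme that opens the hexosamine pathway, was lower by -1.06 and -0.93 (log2 fold change with and without IL-17). Gnpnat1, an acetyltransferase of the same pathway, was higher by 0.35 and 0.43. Ugdh, the enzyme that makes UDP-glucuronic acid, passed with IL-17 at -0.33 (adjusted p = 0.0330) and had -0.26 without it (adjusted p = 0.0804). The siRNA effect on Ugdh differed between prefixes (RB160 minus NA of 0.40, adjusted p = 0.00900 by edgeR). With IL-17 its log2 difference was -0.05 in RB160 and -0.48 in NA libraries.

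Among 6 tested degrading enzymes besides Hyal1 and Hyal2, 1 rose and 3 fell in each IL-17 state. Tmem2, a cell surface hyaluronidase in mouse, changed by -0.65 with and -0.69 without IL-17. Of lysosomal enzymes, Gusb fell (-0.31 and -0.34) and Hexa rose (0.47 and 0.40). The siRNA effect on Hexa differed between prefixes (RB160 minus NA of -0.52, adjusted p = 0.001275 by edgeR). Without IL-17 its log2 difference was -0.0024 in RB160 and 0.60 in NA libraries. Cemip, which is known for hyaluronan breakdown in fibroblasts, did not pass with either (0.57 and 0.26), and its siRNA effect differed between prefixes by 1.32 (adjusted p = 0.00413).

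Of 6 tested genes in the list of receptors other than Cd44, 2 fell in each IL-17 state (Layn and Ptpn13) and none rose. Layn is the only receptor of that pair. Layn, which encodes the hyaluronan receptor layilin, changed by -0.43 with and -0.41 without IL-17, and Ptpn13, a phosphatase placed in the same list, by -1.34 and -1.23. The list of link proteins, lecticans and heavy-chain partners, with other genes placed beside them, held 10 tested genes. With IL-17 0 rose and 5 fell (Itih2, Ptx3, C1qbp, Habp4 and Susd5). Without it 2 rose (Hapln4 and Itih3) and 3 fell (Itih2, Ptx3 and Habp4). The tested link protein gene Hapln4 and the lectican genes Acan and Bcan did not fall past the threshold in either state. Ptx3, which encodes a pentraxin that joins TSG-6 in hyaluronan matrices, changed by -1.31 and -1.13, and Itih2, a heavy chain that TSG-6 transfers, by -1.03 and -1.004. Hapln1, the cartilage link protein gene, was at 0 counts in all 12 libraries. Susd5 and Itih3, both under 1 CPM in each group, passed in 1 state each (-2.53 with IL-17 and 1.497 without it).

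Of 5 tested proteases that cut versican, 3 fell with IL-17 and 4 without it, and none rose. Adamts1 changed by -0.88 with and -0.82 without IL-17, Adamts9 by -1.47 and -1.18, and Adamts5 by -0.37 in both. Adamts4 passed without IL-17 (-0.35, adjusted p = 0.0387) and had -0.17 with it. Among 10 tested Cd44 partners, 1 rose and 4 fell in each state. Spp1, which encodes the Cd44 ligand osteopontin, changed by -0.997 with and -0.968 without IL-17, and the linker Ank3 by -0.79 and -0.75. Adam17, a sheddase, fell (-0.62 and -0.57), and Mmp14, a membrane protease known to cut Cd44, rose (0.40 and 0.35).

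**Figure D4:**
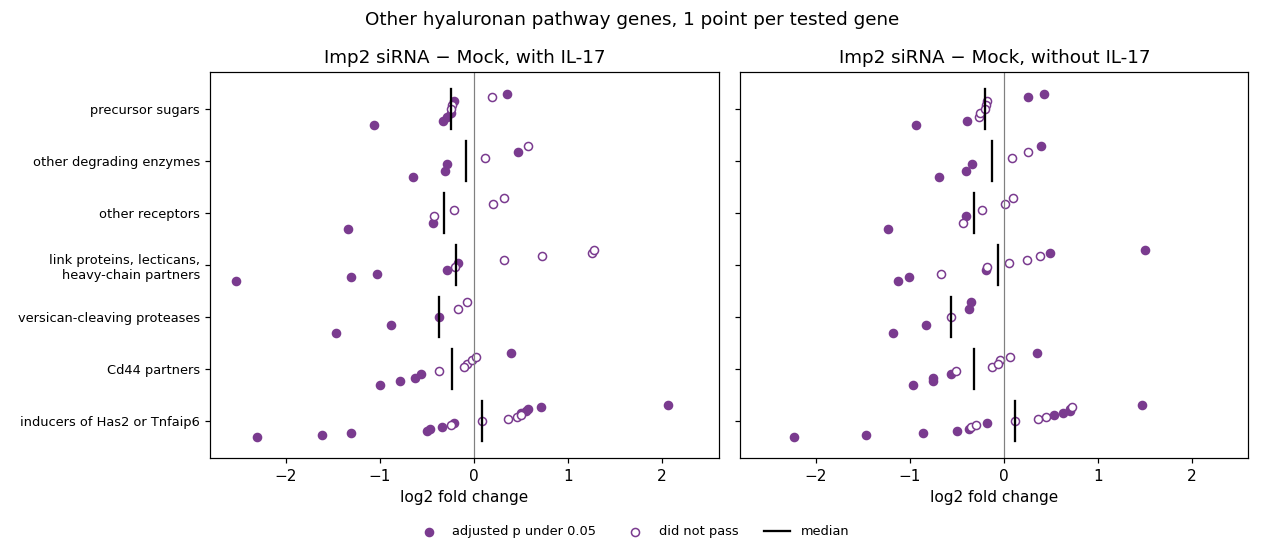
Log2 fold change of Imp2 siRNA over Mock for the 63 tested genes of 7 lists around hyaluronan, with and without IL-17, 1 point per gene and a bar at each list's median. Filled points passed an adjusted p of 0.05, and the versican-cleaving proteases have no point to the right of 0 in either panel.

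The 17 tested genes for factors known to induce Has2 or Tnfaip6 in other cells split in direction: 5 rose and 7 fell with IL-17, and 5 rose and 6 fell without it. Pdgfra, the receptor for platelet-derived growth factor A chains, changed by -2.31 and -2.23, and Il1r1, the interleukin-1 receptor, by -1.61 and -1.47. Their ligand genes Pdgfa (0.57 and 0.71) and Il1a (2.06 and 1.47) rose. Il1a was low, with group means of 0.352 to 3.245 CPM. Without IL-17 its log2 difference with the siRNA was -1.01 in RB160 and 1.645 in NA libraries. With IL-17 it was 2.36 and 1.91. The siRNA effect differed between prefixes for 9 of these 17 genes and for 18 of all 63, against 6.13% of all tested genes. Fgf2 (difference RB160 minus NA of 0.98), Areg (1.28), Ptgs2 (0.87), Pdgfb (0.72) and Hbegf (0.54) had the same sign as Has2, and Tgfb3 (-0.58) the opposite one. Ezr (0.75) and Msn (0.47), which link Cd44 to actin, had differences with the sign of that of Cd44. Those of Rdx (-0.06), Nf2 (-0.0046) and Ank3 (0.21), in the same list, did not pass. Without IL-17, Msn changed by 0.27 in RB160 and -0.19 in NA libraries, while Ezr was lower in both (-0.08 and -0.73). The part of these genes in the differences of Has2 and Cd44 was not tested.

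Markers of cell state moved with the siRNA as well. Of 6 smooth muscle markers, 5 rose in both IL-17 states, and their summed level ran from 8922 to 19140 CPM with Imp2 siRNA and IL-17, against 4143 to 9903 CPM in Mock cells with IL-17. Without IL-17 it ran from 10930 to 20380 CPM with Imp2 siRNA, against 5531 to 10310 CPM in Mock cells. Of 10 tested fibroblast markers, 8 fell and 1 rose in both states. Of these, Pdgfra and Pdgfrb are also in the list of inducers. Of 4 tested epithelial markers, 3 rose and 1 fell with IL-17, and 2 rose and 1 fell without it, with a summed level of at most 207 CPM. Of 4 tested chondrocyte markers 1 fell in each state (Col2a1, -0.59 with and -0.64 without IL-17). Of the macrophage markers 3 were tested, and Cd14 fell with IL-17. Of the endothelial markers 2 were tested, and Cdh5 fell without IL-17. Msln, the 1 tested mesothelial marker, fell in both. The part of these shifts in the changes of Vcan, Has1 and Hyal1 was not tested.

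Genes were ranked by the likeness of their pattern to each of the 8, as Pearson's r of log2 CPM over 12 libraries with prefix means removed, among about 10318 genes. The 12 libraries share the siRNA and IL-17 groups and differ in depth, so r is a description only. Vcan was most like Dkc1 (r = 0.996), Cct6a (0.996) and Klhl42 (0.996). Has2 was most like Nr4a1 (0.963), Tmppe (0.955) and Ptgs1 (0.952), and Cd44 most like Myof (0.964), Lancl3 (0.957) and Utp20 (0.950). The 3 most like genes were Pygo1, Tbp and Arih2 for Has1 (0.973 to 0.971), Nrn1, Snx6 and S100a13 for Tnfaip6 (0.915 to 0.888), and C530008M17Rik, Plcb4 and Slc1a6 for Hyal1 (0.984 to 0.977). They were Dpp3, Prpf6 and Banp for Hyal2 (0.878 to 0.857) and Timm44, Jtb and 9130221H12Rik for Has3 (0.876 to 0.836).

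In RIP-seq, the authors' deposited table of genes enriched with anti-IMP2 over IgG listed 0 of the 8 genes. That table holds 5294 genes, with log2 fold changes from 1.00041 upward and adjusted p-values up to 0.04999, so a gene that is not in it may have failed the threshold or not have been measured, and these cannot be told apart. It lists Igf2bp2 itself (1.94). Of all genes tested in RNA-seq 34.5% are in the authors' deposited table, and of the 63 other pathway genes 17 are (27.0%). In the authors' deposited table these include the precursor enzymes Ugdh (log2 fold change 2.32), Ugp2 (2.02) and Uap1 (1.86), the degrading enzymes Hexa (3.46) and Gusb (2.14), and the receptor Layn (1.55). Spp1 (2.68), Pdgfa (2.88), Tgfb1 (2.62) and Hbegf (2.22) are in it too. A second deposited table of 97 genes, which pairs RNA-seq and RIP-seq values, held 0 of the 8.

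Gene positions in the count table (mm10) were chromosome 13, 89655312 to 89742509 for Vcan (ENSMUSG00000021614) and chromosome 15, 56665627 to 56694539 for Has2 (ENSMUSG00000022367). Cd44 (ENSMUSG00000005087) lies on chromosome 2, 102811141 to 102901665. Has1 (ENSMUSG00000003665) lies on chromosome 17, 17843328 to 17855188, and Hyal1 (ENSMUSG00000010051) on chromosome 9, 107576927 to 107581710. Hyal2 (ENSMUSG00000010047) lies beside it at 107567945 to 107572779, Tnfaip6 (ENSMUSG00000053475) on chromosome 2, 52038009 to 52056686, and Has3 (ENSMUSG00000031910) on chromosome 8, 106870242 to 106884566. Has2 overlaps Has2os, an antisense RNA gene with 20 to 45 counts per library, against 1409 to 10897 counts for Has2, and Has2os did not pass the siRNA test in either state. Vcan overlaps Gm4117, which had 17 to 42 counts per library, and Hyal2 overlaps Gm9917, which had 87 to 285.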

How the data were processed

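RNA-seq and RIP-seq were made from C57BL/6 MEFs, with Nextera XT and SMART-Seq v4 kits per the labels' protocols. The authors deposited raw read counts per gene for 12 RNA-seq libraries, used here as deposited. Tools named in the submitters' processing notes, without their roles, are CASAVA 1.4, STAR and DESeq2, and the build is mm10. The RIP-seq table gives the authors' log2 fold change and adjusted p-value per gene, per the file headers, and no values per library. Its mean normalized signal over libraries and its Wald score were also made by the authors and are not printed.

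The members and lists were chosen with earlier results of these data known. The 8 members are named in every comparison. From each pathway list, genes that passed may be named, the 4 largest with values, and the 3 genes most like each member in pattern. Gusb, Cemip and the genes named for a difference between prefixes were picked after their values were seen.

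The analysis used edgeR 4.0.16 in R 4.3.3, with filterByExpr (at least 10 counts) and TMM factors. A robust quasi-likelihood fit held the 4 groups plus title prefix on 12 libraries. It was checked on simulated data in which the siRNA effect was the same in both prefixes. That check does not cover genes whose effect differs between prefixes. P-values were adjusted by Benjamini-Hochberg over 13702 genes, with a threshold of 0.05. The SE is the log2 fold change divided by the square root of F. Replicate numbers only name libraries: 1 is RB160, and 2 and 3 are NA. Alternatives were DESeq2 1.42.0, other scaling, no filter, no prefix term, a block of title sets, NA libraries alone, compared groups alone, a mean per group and prefix, and leaving out each library. For differences between prefixes, only DESeq2, other scaling and leaving out each NA library were run. Promoter motifs were searched in Python. Counting error is included in the fit.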

Additional observations from a re-analysis of the deposited data

Results flagged for a closer look

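For 4 genes the Imp2 siRNA effect differed between RB160 and NA libraries by the test of the difference itself (edgeR, log2 scale, RB160 minus NA): Has2 by 1.64 (adjusted p = 7.42e-08), Cd44 by 0.86 (9.31e-05), Vcan by 0.64 (0.0190) and Tnfaip6 by -0.58 (0.0373). The IL-17 effect, averaged over siRNA states, differed for Has2, by 0.81 (adjusted p = 0.000501 by edgeR). In Imp2 siRNA cells alone that difference did not pass (adjusted p = 0.163 by edgeR). Has2 and Cd44 had effects of opposite sign in the prefixes, higher with the siRNA in RB160 libraries and lower in NA libraries. Vcan fell in both. Within single IL-17 states the siRNA differences of Vcan and Tnfaip6 did not pass. Each RB160 value rests on 1 library per group. The labels do not explain the prefix, and what it marks was not tested.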

How the results depend on the processing

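Without the prefix term, 0 of the 8 genes passed in either siRNA comparison (Vcan -1.15 with and -1.04 without IL-17, adjusted p of 0.132 and 0.162), while 3 of the 63 other pathway genes passed in each, and 318 and 303 of all genes. For IL-17 that model called 0 pathway genes in each siRNA state and 2 and 1 of all genes. In NA libraries alone 5 of the 8 passed in each siRNA comparison, and 3 pathway genes passed with IL-17 in each siRNA state. With the compared groups alone, IL-17 changed 6 pathway genes and 370 of all genes in Imp2 siRNA cells, and 3 and 152 in Mock cells. With a mean for each group and prefix, 1 of the 8 (Cd44, 0.29) passed for IL-17 in Imp2 siRNA cells and 2 in Mock cells (Cd44, 0.29, and Has2), with 10 and 9 pathway genes and 377 and 618 of all genes. There the change of Has2 in Mock cells was reversed, at 0.28 (adjusted p = 0.0204) against -0.01, and 5 of the 8 passed with Imp2 siRNA under IL-17. That model called 1 of all genes for the difference of the IL-17 responses. It weights the prefixes equally, where the additive model weights them by libraries. Its spread comes from the NA pairs alone, with 1 RB160 library per group.

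DESeq2 called 6 pathway genes and 170 of all genes for IL-17 in Imp2 siRNA cells, 5 and 197 in Mock cells, and 500 of all genes, against 840, for the difference of siRNA effects between prefixes. Without the low-count filter IL-17 changed 110 of all genes and 2 pathway genes in Imp2 siRNA cells, and 95 of all genes in Mock cells. Other scaling changed no call among the 8.

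Leaving out 1 library at a time gave 1 to 4 of the 8 genes for Imp2 siRNA with IL-17 and 2 to 3 without it. For IL-17 it gave 1 to 4 pathway genes and 8 to 116 of all genes in Imp2 siRNA cells, and 1 to 3 and 6 to 113 in Mock cells. For differences between prefixes only NA libraries were left out. That gave 2 to 4 of the 8 and 547 to 1011 of all genes (siRNA), and 19 to 100 of all genes (IL-17). The cause of these shifts was not tested. Has2 and Cd44 kept their siRNA differences between prefixes past the threshold in every setting run. Each of those settings kept all RB160 libraries, so none could show whether a difference rests on 1 of them.

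By title number the libraries can be put in 3 sets that each hold the 4 groups once (RB160, NA titles 1 to 4 and NA titles 5 to 8), though the labels do not say that a number marks a shared set. A replicate block of these sets in place of the prefix term, chosen after seeing the data, left Vcan, Has1 and Hyal1 as the 3 of 8 genes passed in each siRNA comparison, with 37 pathway genes in each and 4791 (with IL-17) and 4672 (without) of all genes. For IL-17 it called 0 of the 8, 1 pathway gene in each siRNA state and 73 and 77 of all genes. The pairing was checked by the difference between the NA sets, over all tested genes: its correlation between 2 groups ran from 0.017 to 0.166 over the 6 pairs of groups and was over 0.1 in 3 of them. For RIP-seq no paired analysis was possible because it has no values per library. Levels per transcript length were not run, as no transcript lengths were used here. Depth limits Has1 most, with 2 to 54 counts per library.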
